A study of Homo sapiens with 12 samples.

Results

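Pyridostatin was given to A549 cells of 2 genotypes, and the comparison described here is the difference between the 2 drug responses: the log2 response of PARP3-/- cells minus the log2 response of wild-type cells, gene by gene. A549 is a line of human lung adenocarcinoma cells. All 12 libraries of the series enter it, in 4 groups of 3 libraries: wild-type cells with DMSO vehicle, wild-type cells with 1 µM pyridostatin, PARP3-/- cells with vehicle, and PARP3-/- cells with 1 µM pyridostatin, each for 24 h before RNA was taken. The design calls the 3 libraries of a group biological triplicates. The study describes its PARP3-/- A549 cells as made with Cas9 cut sites in the first exon of PARP3 and grown out by dilution cloning. It describes them as carrying a rearrangement reporter, a cassette inserted at random with AAVS1 sequence in it. Whether the cells used for RNA carried the reporter is not stated. A difference between genotypes cannot be told apart from a difference between clones. Levels were FPKM (fragments mapped to a gene, divided by the length of its transcript and by the size of the library), responses were taken on log2(FPKM + 1), which understates the change of low genes, and genes entered when their mean over the 12 libraries was at least 1 FPKM. That rule kept 11881 of 25365 gene names.

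G-quadruplexes are 4-stranded structures that guanine-rich DNA or RNA can fold into, and pyridostatin is a small molecule that binds and stabilizes them. Stabilized structures can stall replication forks and lead to DNA breaks, and broken DNA activates the transcription factor p53, which A549 cells carry in wild-type form. p53 raises genes that halt the cell cycle, repair DNA or start apoptosis; one of them, CDKN1A, encodes the inhibitor p21, through which E2F-driven replication and mitotic genes are turned down. PARP3 is a nuclear ADP-ribosyltransferase with a role in the repair of double-strand breaks. The question for the RNA data was whether cells without PARP3 answer the drug with a different set of genes.

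Before the comparison, some facts of the libraries bear on it. The PARP3 transcript was not lower in the libraries labelled PARP3-/-: it stood at 3.83, 3.40 and 3.96 FPKM in wild-type vehicle libraries, 3.74, 3.57 and 4.05 with pyridostatin, 4.92, 4.07 and 4.25 in PARP3-/- vehicle libraries and 4.73, 4.71 and 4.30 with pyridostatin. A deletion in a first exon can leave the rest of the transcript to be counted, and the reason for this level was not tested. The level does not check the genotype, which for each library rests on its label. Of 17 markers of lung epithelium and A549 cells in the table, 10 averaged 1 FPKM or more, and SFTPB, a surfactant gene, was listed at 0 throughout. Summed, the 17 came to 9811 to 11579 FPKM in wild-type vehicle, 10161 to 10330 in wild-type pyridostatin, 8951 to 9832 in PARP3-/- vehicle and 8845 to 9451 in PARP3-/- pyridostatin libraries. Of 18 blood, endothelial and fibroblast markers, 4 (CD68, CD14, ACTA2 and COL1A1) reached 1 FPKM and CD3E and CLDN5 were among those listed at 0, with sums of 26.6 to 32.4, 33.7 to 35.8, 35.9 to 44.8 and 44.3 to 47.9 FPKM in the same order of groups. Wild-type vehicle replicate 2 stood apart: across genes its deviation from its group rose with transcript GC content (rho 0.54) and fell with transcript length (rho −0.61), its FPKM summed to 563473 against 492839 to 525124 in the other 11 libraries, and limma's array weights gave it 0.101 against 0.658 to 3.99. Total read counts were not in the deposited values; steps among low values put the relative depths within a 1.42-fold range, from the 10.1% to 13.9% of low ratios that fell on a step.

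All 293 genes with an adjusted limma p under 0.05 in both drug responses went the same way in each. SRGAP2B, FAM72D and SLX1B, each past an absolute log2 response of 1 in one genotype, moved the opposite way in the other. Each has near-identical copies among which reads can be split. No gene differed between the 2 responses past the adjusted threshold except under the alternative settings given in the closing section. One limma fit of all 4 groups, with p-values adjusted by Benjamini-Hochberg over the 11881 genes, put 0 genes under an adjusted p of 0.05 for the interaction, and 521 genes (4.39%) under an unadjusted p of 0.05, 267 (2.25%) with the more positive response in PARP3-/- cells and 254 (2.14%) with the more negative. The precision was enough to bound most genes on the scale of log2(FPKM + 1). The 95% interval of the difference lay within ±1 for 11548 genes (97.2%) and within ±0.58 for 11114 (93.5%), with a median half-width of 0.212. A difference of 0.58 is 1.5-fold in FPKM + 1, and is a larger fold in FPKM for low genes. Of the 3382 genes with a mean of 1 to 5 FPKM, 3034 (89.7%) had an interval within ±0.58. None of the 235 microRNA and small nucleolar RNA names had an interval within ±0.58, while 95.4% of the 11646 other names did.

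In wild-type cells 331 genes rose (2.79%) and 164 fell (1.38%) at an adjusted limma p under 0.05. In PARP3-/- cells 362 rose (3.05%) and 299 fell (2.52%). The share of wild-type calls that were rises was 66.9%, and 45.6% after shifting the libraries to one shared median, while in PARP3-/- cells it was 54.8% and 45.3%. Called in both genotypes were 212 rises (1.78%) and 81 falls (0.682%), and no gene was called in opposite directions. These 293 genes (2.47%) were 59.2% of the wild-type calls and 44.3% of the PARP3-/- calls. The 2 responses share no library, so the fold change of each set of calls can be read in the libraries of the other genotype, although the standard errors behind all calls and p-values come from 1 fit that pools the spread of all 12 libraries. Of the 495 genes (4.17%) called in wild-type cells, 489 had the same sign in PARP3-/- cells, and 421 had an unadjusted p under 0.05 there. Of the 661 (5.56%) called in PARP3-/- cells, 639 had the same sign in wild-type cells and 526 an unadjusted p under 0.05. Over all 11881 genes 69.9% had the same sign. Across genes, which are not independent replicates, the responses correlated with r = 0.53 and rho 0.56 over the 11646 names that are not small RNAs, and with r = 0.19 and rho 0.53 over all.

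Genes called in one genotype had a smaller median absolute response in the other, in either direction of reading. This did not hold for each gene: 27.1% of the 495 called in wild type had the larger absolute response in PARP3-/- cells, as did 75.8% of the 661 called in PARP3-/- cells. The 202 genes called in wild-type cells but not in PARP3-/- cells had a median absolute response of 0.24 in the first and 0.14 in the second, and 128 of them had an unadjusted p under 0.05 in PARP3-/- cells. The 368 called in PARP3-/- cells but not in wild type had medians of 0.23 and 0.12, and 233 of them had an unadjusted p under 0.05 in wild-type cells. Choosing genes for a large response in one set of libraries has this effect on its own, so these medians are a description. Libraries that did not overlap and moved in opposite directions were found for 29 genes (0.244%), against 892 (7.51%) that were higher with drug in every library of both genotypes and 577 (4.86%) that were lower in every library of both. Taking each genotype alone, drug and vehicle libraries did not overlap for 2743 genes (23.1%) in wild type and 3835 (32.3%) in PARP3-/- cells.

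**Figure D1:**
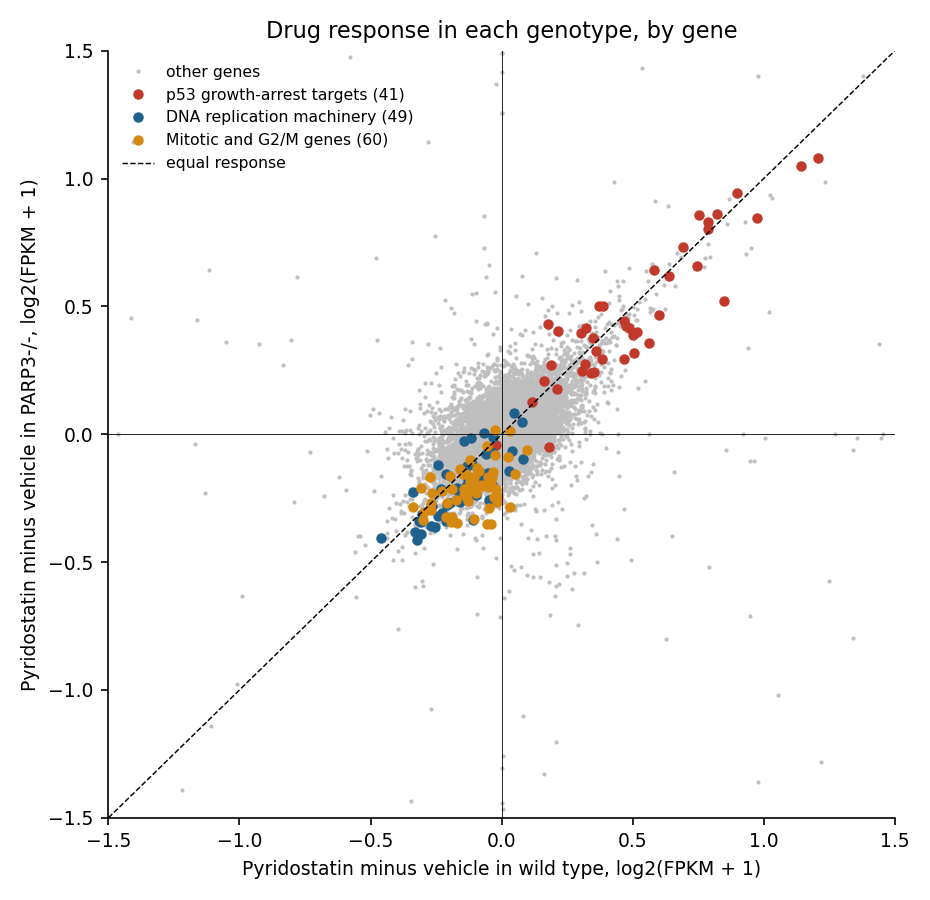
Response to pyridostatin in wild-type cells (x axis) against that in PARP3-/- cells (y axis), both as log2 differences of log2(FPKM + 1); each point is 1 of 11740 genes, 141 further genes lie outside the axes, colours mark the 41 p53 growth-arrest targets, 49 replication genes and 60 mitotic genes, and the dashed line is an equal response. The p53 targets run along that line up to BTG2 at 1.21 and 1.08, while most replication and mitotic genes lie below 0 on both axes and, for 75.5% and 83.3% of them, below the line.

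The strongest shared rise was in p53 targets. Of 41 growth-arrest targets tested, 31 rose in wild-type cells and 36 in PARP3-/- cells, 30 in both, and none fell; the background of rises was 2.79% and 3.05%. Their median response was 0.47 in wild type and 0.42 in PARP3-/-, against 0.00 for all genes in both, and the median difference was −0.03. With 1 library left out the wild-type count ran from 26 (without wild-type pyridostatin replicate 1) to 32. The PARP3-/- count ran from 24 (without PARP3-/- pyridostatin replicate 2) to 39, and both were highest without wild-type vehicle replicate 2. CDKN1A, the p21 inhibitor of cyclin-dependent kinases, stood at 85.6, 94.9 and 80.5 FPKM in wild-type vehicle libraries and 194, 196 and 189 with drug. In PARP3-/- cells it stood at 95.6, 102 and 102 with vehicle and at 198, 211 and 215 with drug. The groups did not overlap in either genotype, and the responses of 1.14 and 1.05 differed by −0.09 (95% interval −0.28 to 0.09). BTG2, an antiproliferative gene that p53 induces, stood at 4.63, 4.35 and 4.56 FPKM and then 11.7, 12.2 and 11.3 in wild type, and at 4.67, 6.06 and 5.83 and then 12.4, 12.8 and 13.01 in PARP3-/- cells. Its responses were 1.21 and 1.08, and the interval of the difference was −0.35 to 0.10. BTG2 was the 1 of 5 members of the BTG/TOB family that was called, in either genotype.

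Of the 41, 10 were not called in wild type and 5 not in PARP3-/- cells. SESN1, a stress-induced regulator of growth signalling, responded by 0.90 and 0.94, and MDM2, the ubiquitin ligase that degrades p53, by 0.82 and 0.86. FDXR, a mitochondrial electron carrier reductase, responded by 0.97 and 0.85, and PHLDA3, an inhibitor of AKT, by 0.79 and 0.83. Of the 41, 4 had an unadjusted interaction p under 0.05. AEN, a nuclease, responded by 0.47 in wild type and 0.30 in PARP3-/- cells. DDB2, the damage sensor of nucleotide excision repair, responded by 0.50 and 0.32. ACER2, a ceramidase, responded by 0.85 and 0.52, and CDIP1, a pro-apoptotic protein, went the other way with 0.18 and 0.43. AEN, DDB2 and ACER2 were called in both genotypes, CDIP1 in PARP3-/- cells only, and for each the limma adjusted p of the difference was 0.999. Apoptosis targets gave fewer calls: 6 of 25 rose in each genotype and 5 in both, with medians of 0.04 and 0.10. The 5 were FAS, a death receptor (10.4, 10.7 and 11.3 to 21.4, 19.3 and 17.3 FPKM in wild type; 15.7, 13.7 and 13.4 to 23.9, 23.3 and 23.7 in PARP3-/-), TNFRSF10B, another death receptor, BAX and BBC3, which act on mitochondria, and EI24. TNFRSF10A was called in wild type only and BCL2L1 in PARP3-/- cells only, with differences that had no unadjusted p under 0.05. The wild-type count of 6 fell to 3 without wild-type pyridostatin replicate 1 or without wild-type vehicle replicate 3.

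Promoter sequences of the shared genes were read in the RefSeq table of build GRCh38.p14, 250 bases before to 50 after each start, because the drug binds G-quadruplexes and the leading genes are p53 targets. A G-quadruplex motif was taken as 4 runs of at least 3 G with loops of 1 to 7 bases, on either strand, and the p53 element as a full consensus site without spacer with up to 2 mismatches. Of the 212 genes higher in both genotypes 178 had a promoter in the table, and 85 of them (47.8%) held a G-quadruplex motif. Of the 81 lower in both, 65 had a promoter and 20 (30.8%) held one, as did 51 of 162 (31.5%) among the genes called in wild type only; over all 35116 promoters in the table the share was 25%, and over the 9263 genes tested that had a promoter it was 34.1%, and over the 287 called in PARP3-/- cells only 35.2%, but these were 78.0% of either set, under the 80% set for a check, so that a comparison with them is void. The shares of 47.8%, 30.8% and 31.5% lie above the 25% of all promoters, but those include promoters of genes not tested here. The shares of 30.8% and 31.5% lie below the 34.1% of genes tested, and no conclusion is drawn from either background. Median transcript GC content was 52.6% in the genes higher in both, 45.7% in those lower in both and 48.2% over the genes tested. The part of GC content in the motif shares was not tested. The p53 element was in 4 promoters (2.25%) of the genes higher in both, in none of those lower in both and in 0.285% of all promoters. A match is a description of letters, not a bound site. The sequences below are those of 4 of the strongest shared rises, with the G runs in capitals, and of the 4 shared rises with a p53 element, with the 4-base cores in capitals, each 5′ to 3′ on the strand given.
BTG2, chr1:203305351-203305374, plus strand: GGGcGGGGGctGGGGtggcGGGGG
CDKN1A, chr6:36678598-36678622, plus strand: GGGccccGGGGaGGGcggtcccGGG
DDX42, chr17:63774117-63774138, minus strand: GGGcagaaGGGcGGGGccGGGG
SESN1, chr6:109094877-109094896, minus strand: GGGGctGGGcgaaGGGcGGG
LINC01021, chr5:27472165-27472184, plus strand: gggCTTGtctgggCATGccc
AEN, chr15:88621306-88621325, plus strand: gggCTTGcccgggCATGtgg
ACTA2, chr10:88991309-88991328, minus strand: tggCTTGtcagggCTTGtcc
DCP1B, chr12:2004650-2004669, minus strand: gggCAGGcctgggCTTGtcg

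The element upstream of LINC01021, a noncoding RNA, matched the consensus with 0 mismatches, and those of AEN, ACTA2 and DCP1B with 2 each. LINC01021 stood at 7.12, 6.22 and 7.71 FPKM with vehicle and 10.9, 11.6 and 10.5 with drug in wild type, and at 7.68, 6.49 and 7.59 and then 10.5, 11.9 and 10.8 in PARP3-/- cells. Its responses of 0.59 and 0.55 differed by −0.04 (95% interval −0.29 to 0.21). ACTA2, smooth muscle actin and one of the fibroblast markers above, rose by 0.79 and 0.75.

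Outside the p53 lists the largest shared rises were those of DDX42 and GAS6-AS1. DDX42 is a DEAD-box RNA helicase of the U2 snRNP. It stood at 49.9, 46.4 and 50.2 FPKM with vehicle and at 107, 98.9 and 96.8 with drug in wild type, and at 53.01, 52.1 and 50.7 and then 92.2, 103 and 104 in PARP3-/- cells. No library with drug overlapped a vehicle library, and the responses of 1.03 and 0.92 differed by −0.11 (95% interval −0.28 to 0.06). DDX42 was the only called member in wild type of 51 DEAD and DEAH box helicases and of 24 U2 and SF3 components. GAS6-AS1, an antisense RNA whose reads cannot be told from those of GAS6 without a stated strand setting, responded by 1.02 and 0.94. The largest shared falls were smaller. MANF, an endoplasmic reticulum stress factor, stood at 63.5, 78.8 and 63.9 and then 44.8, 44.8 and 48.7 FPKM in wild type, and at 64.6, 66.0 and 68.7 and then 49.95, 48.6 and 45.5 in PARP3-/- cells. Its responses were −0.56 and −0.46. KRT15, a basal keratin, fell by 0.42 and 0.49, FGFBP1, a carrier of fibroblast growth factors, by 0.38 and 0.49, PAQR4, a membrane receptor-like protein, by 0.55 and 0.40, and GINS2, a subunit of the replicative helicase, by 0.46 and 0.40. For all of these the interval of the difference included 0.

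**Figure D2:**
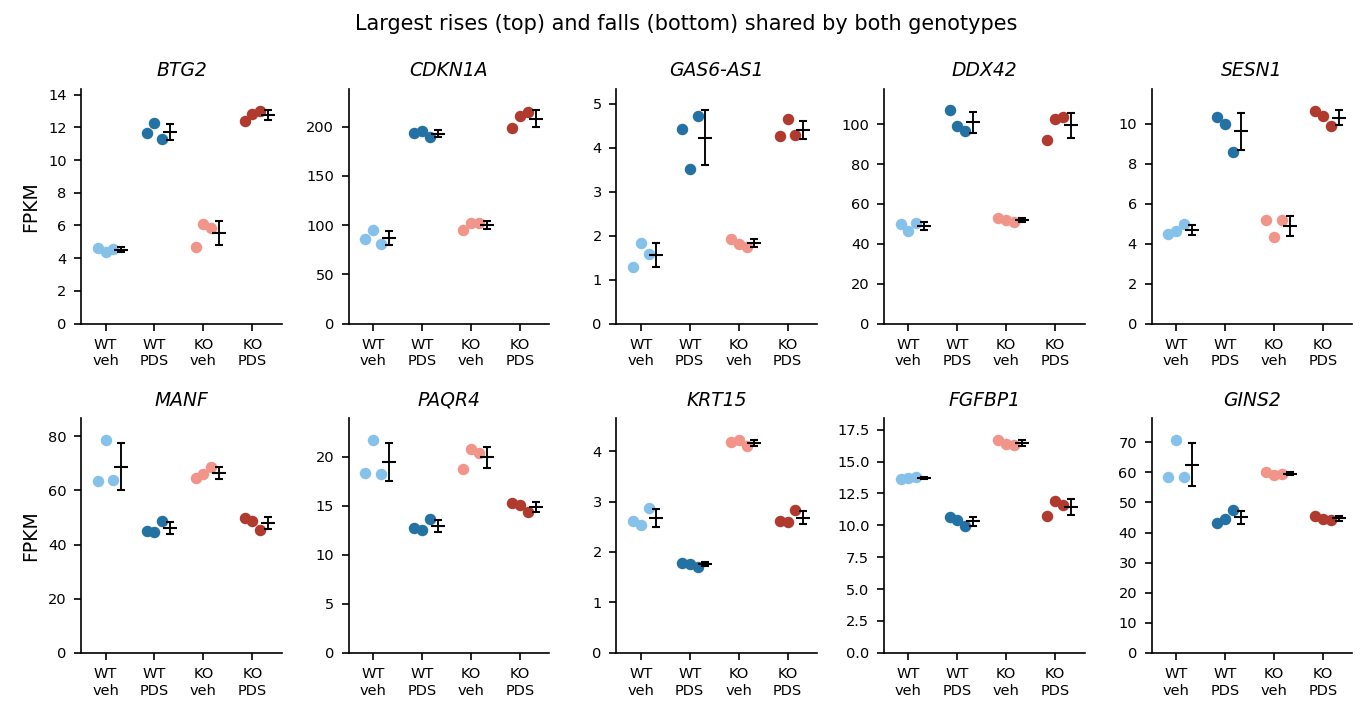
FPKM of the shared rises and falls in each of the 12 libraries, 1 panel a gene; WT is wild type, KO is PARP3-/-, veh is vehicle and PDS is pyridostatin, points are libraries and black bars the mean ± SD of 3. In both genotypes the drug libraries of CDKN1A and BTG2 lie above, and those of MANF and GINS2 below, every vehicle library.

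Of 49 genes of the replication machinery 13 fell in wild type and 27 in PARP3-/-, 12 in both, and none rose; the background of falls was 1.38% and 2.52%. The median response was −0.13 in wild type and −0.21 in PARP3-/-, and 75.5% of the 49 had a negative difference, beside 53.2% of all genes. CDC45, a component of the active replicative helicase, stood at 24.2, 26.8 and 22.3 and then 19.7, 18.8 and 19.4 FPKM in wild type, and at 24.5, 23.9 and 25.1 and then 18.5, 18.3 and 17.7 in PARP3-/- cells. MCM6, a subunit of the helicase ring, fell by 0.33 and 0.38, MCM2 by 0.31 and 0.34, and DBF4, the activator of the CDC7 kinase, by 0.31 and 0.39. The difference itself had an unadjusted p under 0.05 in 3 members, MCM3, ORC6 and GINS3, all negative, and an adjusted p under 0.05 in none. The PARP3-/- count was 17 without PARP3-/- pyridostatin replicate 2, 14 without replicate 3 of that group and 15 without PARP3-/- vehicle replicate 3, and the wild-type count was 8 without wild-type pyridostatin replicate 1.

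The same 3 of 18 E2F and RB family genes fell in both: E2F1 by 0.44 and 0.39, E2F2 by 0.33 and 0.36, and E2F8 by 0.36 and 0.38. E2F1 and E2F2 drive entry into S phase and E2F8 represses it. Among 15 G1 cyclins, kinases and inhibitors, CDKN1A rose in both, CDKN2C fell in both, and CDK2 and CDKN2D fell in PARP3-/- cells only. Of 28 genes that supply nucleotides, 2 fell in wild type, DUT among them, and 6 fell and RRM2B, a p53-induced ribonucleotide reductase subunit, rose in PARP3-/- cells; the 6 became 1 or 2 without PARP3-/- pyridostatin replicate 2 or 3 or vehicle replicate 2 or 3, and 10 without wild-type vehicle replicate 2.

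Mitotic and G2/M genes gave the widest gap in counts between genotypes of all the groups described here. Of 60 tested, 8 fell in wild type and 27 in PARP3-/- cells, 6 in both, and none rose. The medians were −0.11 and −0.21, with 83.3% of the 60 having a negative difference, beside 53.2% of all genes. Where wild type and PARP3-/- agreed, they agreed closely: PBK, a mitotic kinase, stood at 75.3, 74.9 and 74.6 and then 61.2, 60.8 and 60.4 FPKM in wild type, and at 65.8, 66.3 and 66.2 and then 54.0, 53.5 and 52.4 in PARP3-/- cells, with a difference of −0.01 (95% interval −0.09 to 0.08). MAD2L1, of the spindle checkpoint, fell by 0.34 and 0.28. The difference had an unadjusted p under 0.05 in 8 of the 60, all negative: AURKA, KIF20A, KIF4A, NDC80, INCENP, PRC1, DLGAP5 and HJURP. NDC80, which anchors microtubules to kinetochores, stood at 11.3, 10.2 and 11.6 and then 10.5, 10.4 and 11.2 FPKM in wild type, where the groups overlapped, and at 12.2, 11.6 and 12.2 and then 9.20, 9.50 and 8.96 in PARP3-/- cells, where they did not. Its responses of −0.04 and −0.35 differed by −0.31 (95% interval −0.47 to −0.15; limma adjusted p = 0.999). PRC1, which bundles the central spindle, stood at 105, 105 and 104 and then 104, 101 and 104 FPKM in wild type, and at 108, 106 and 105 and then 92.1, 94.2 and 88.3 in PARP3-/- cells, a difference of −0.19 (95% interval −0.29 to −0.09; limma adjusted p = 0.999).

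The counts of mitotic genes changed with the library left out, and so did those over all genes. With 1 library left out, the 495 calls in wild type ran from 178 to 706 and the 661 in PARP3-/- cells from 254 to 1559. The median mitotic response stayed between −0.14 and −0.08 in wild type and between −0.22 and −0.20 in PARP3-/- cells. Without wild-type vehicle replicate 2 the mitotic counts were 19 and 45, beside 2.47% and 6.19% of all genes that then fell. The median difference was then −0.06, with still 83.3% of the 60 negative. The PARP3-/- count was 11 to 17 when any of 5 of its own 6 libraries was left out, pyridostatin replicate 1 being the exception, and the wild-type count was 4 or 5 without wild-type pyridostatin replicate 1 or 3, wild-type vehicle replicate 3 or any 1 PARP3-/- library. The number with a negative difference and an unadjusted p under 0.05 was 4 or 5 without PARP3-/- pyridostatin replicate 2 or 3, any PARP3-/- vehicle library, or wild-type pyridostatin replicate 1 or 3. The median transcript GC content of the group was 43.2%, beside 48.2% over all genes, and the part of GC content and of that library in the difference was not tested beyond these values.

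All 23 cohesin and condensin genes had a negative difference, beside 53.2% of all genes, with medians of 0.02 in wild type and −0.14 in PARP3-/- cells. But none of the 23 had an unadjusted p under 0.05, and 60.9% were negative without wild-type vehicle replicate 2. WAPAL, which releases cohesin from DNA, rose in both genotypes, by 0.50 and 0.43. Of the others 5 fell in PARP3-/- cells and none in wild type: CDCA5, NCAPD2, NCAPG, NCAPG2 and NCAPH; the 5 became 1 or 2 without any 1 PARP3-/- library and 13 without wild-type vehicle replicate 2. Of 22 histone variants and chaperones, 4 fell in wild type and 7 in PARP3-/-, and HIRA, a histone H3.3 chaperone, rose in both by 0.30 and 0.32; the 7 became 3 or 4 without wild-type pyridostatin replicate 1 or without any 1 PARP3-/- library. NASP, a chaperone of H3 and H4, responded by −0.11 and −0.31. None of 24 clustered histone genes was called; polyadenylated libraries hold few of their transcripts.

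**Figure D3:**
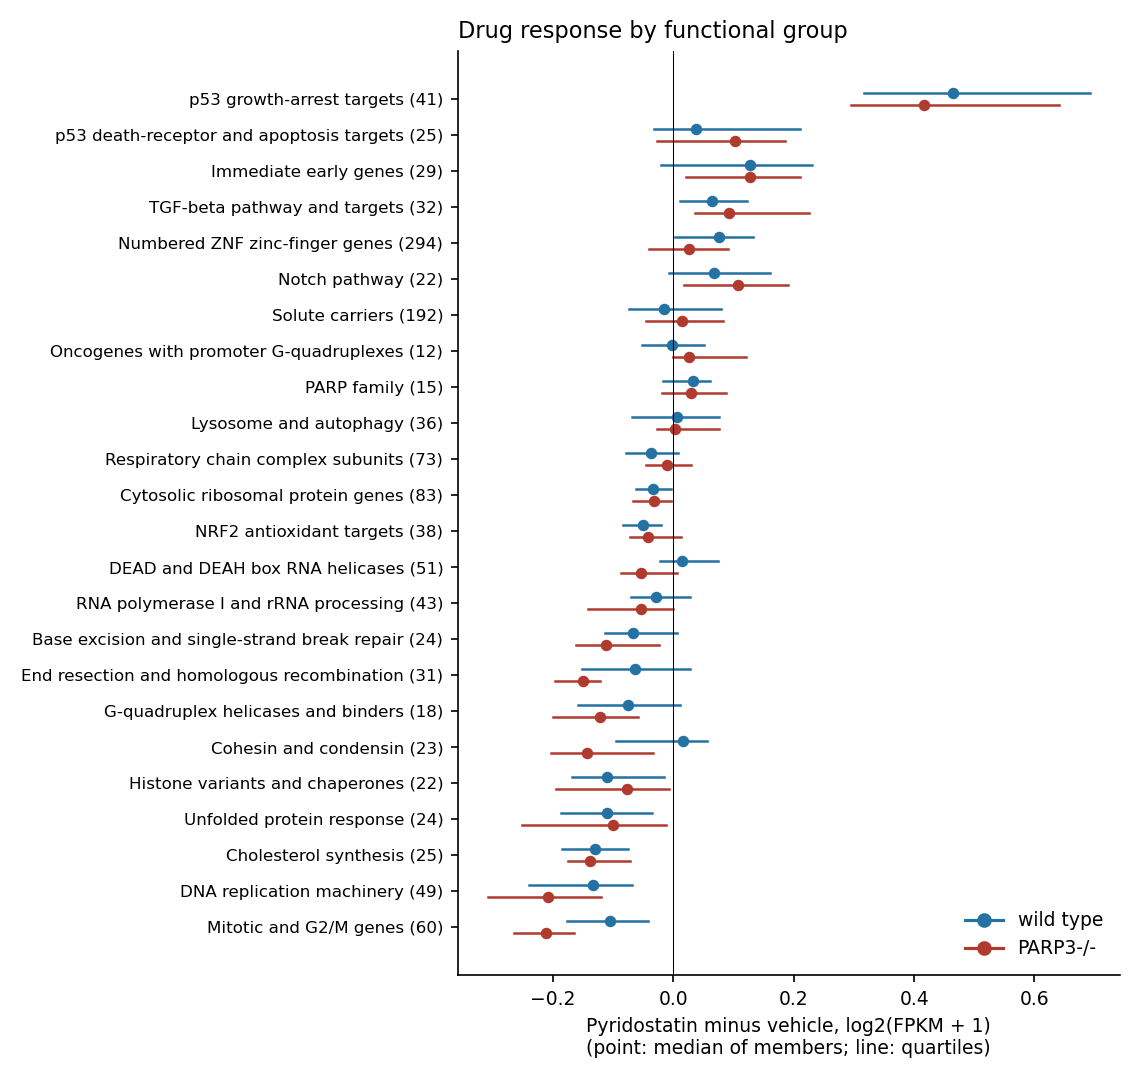
Median response of each functional group in wild-type and PARP3-/- cells (x axis, log2), for 24 of the 55 groups, with the number of members tested beside each name; points are medians over members and lines run between the quartiles of the members, which is a spread over genes and not a replicate error. The p53 growth-arrest group lies at 0.47 and 0.42, replication at −0.13 and −0.21, mitotic genes at −0.11 and −0.21, and most other groups near 0.

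The calls among DNA repair genes were mostly falls and stood against a background of falls of 1.38% in wild type and 2.52% in PARP3-/- cells. None of 13 non-homologous end joining genes was called. Of 31 end resection and homologous recombination genes, RAD54L and RMI2 fell in wild type and RBBP8, EXO1, RPA1 and BRCA1 in PARP3-/- cells, with none in both; those counts of 2 and 4 ran from 1 (without wild-type pyridostatin replicate 1) to 6 and from 0 (without PARP3-/- pyridostatin replicate 1) to 16, both highest without wild-type vehicle replicate 2. RBBP8 encodes CtIP, which starts resection, and responded by −0.07 and −0.22. RMI2, a partner of the BLM helicase, stood at 26.9, 30.6 and 26.6 and then 21.0, 23.0 and 21.5 FPKM in wild type, and at 26.8, 28.9 and 28.4 and then 25.3, 24.5 and 25.1 in PARP3-/- cells, a difference of 0.18. Of the 31, 83.9% had a negative difference, beside 53.2% of all genes, and 67.7% of the 31 were negative without wild-type vehicle replicate 2. UBE2T fell in both and FANCG in PARP3-/- cells among 18 Fanconi anaemia genes. XPC and DDB2, which sense damage for nucleotide excision repair, rose in both, and LIG1 fell in PARP3-/- cells, among 22 of that pathway. Of 24 base excision repair genes, the glycosylases UNG and NEIL3 fell in both and XRCC1, PARP1, FEN1 and HMGB1 in PARP3-/- cells only; the PARP3-/- count of 6 was 2 or 3 without PARP3-/- pyridostatin replicate 3 or vehicle replicate 2 or 3. MSH6 fell in both and EXO1 in PARP3-/- cells among the mismatch repair genes. Among 21 checkpoint genes WEE1 fell in both, RAD1 in wild type and TIMELESS in PARP3-/- cells. Of 15 translesion genes, POLH rose and PRIMPOL fell in both.

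The PARP family and the proteins that act on G-quadruplexes gave 1 and 4 calls. PARP1 was the only called member of 15 PARP family genes: it stood at 62.4, 59.5 and 61.3 and then 58.6, 59.9 and 63.3 FPKM in wild type, and at 64.7, 64.0 and 65.2 and then 57.6, 58.5 and 57.0 in PARP3-/- cells. The groups overlapped in wild type and not in PARP3-/- cells, where it fell by 0.16, and the difference of −0.15 had a limma adjusted p of 0.999. Over all genes, drug and vehicle libraries did not overlap for 23.1% in wild type and 32.3% in PARP3-/- cells. Of 18 G-quadruplex helicases and binders, CNBP fell in both genotypes and RTEL1, NCL and HNRNPA2B1 in PARP3-/- cells only. With 1 library left out, the wild-type count of 1 ran from 0 (without wild-type pyridostatin replicate 1) to 2, and the PARP3-/- count of 4 from 2 (without PARP3-/- pyridostatin replicate 1) to 9 (without wild-type vehicle replicate 2), beside the same background of falls. RTEL1, a helicase that unwinds these structures at telomeres, stood at 4.86, 5.66 and 5.74 and then 4.27, 3.93 and 4.40 FPKM in wild type, and at 5.90, 5.69 and 6.04 and then 3.88, 3.94 and 2.91 in PARP3-/- cells. Its responses of −0.30 and −0.59 differed by −0.29 (95% interval −0.57 to −0.01), and no drug library overlapped a vehicle library in either genotype. NCL, nucleolin, responded by −0.00 and −0.22. Of 12 oncogenes known for a promoter G-quadruplex, PDGFA alone was called and rose in both, by 0.57 and 0.48. Of 17 shelterin and telomere genes TERF2 rose in both, by 0.30 and 0.21, and RTEL1 was the other call. None of 8 topoisomerases and phosphodiesterases was called.

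RPS27L, itself a p53 target, was the only call in either genotype among 83 cytosolic ribosomal protein genes and rose in both, by 0.34 and 0.24. None of 76 mitochondrial ribosomal protein genes and none of 22 small nucleolar RNA host genes was called. DDX50 fell in PARP3-/- cells, responding by −0.04 and −0.21. Of the 51 helicases 84.3% had a negative difference, beside 53.2% of all genes. An unadjusted limma p under 0.05 for the difference was found in 5.88% of the 51, beside 4.39% of all genes. Of the U2 and SF3 components, U2AF1 and RBM17 fell in PARP3-/- cells. Of 35 genes with SR protein and hnRNP names, HNRNPL and HNRNPLL rose and HNRNPA0 fell in both, SRSF2 fell in wild type, and 5 more fell in PARP3-/- cells; that count of 6 became 0 without PARP3-/- pyridostatin replicate 2 or 3 or vehicle replicate 2 or 3, 1 without vehicle replicate 1, 2 without pyridostatin replicate 1 and 3 without wild-type vehicle replicate 3. Of 43 genes of RNA polymerase I and rRNA processing none was called in wild type, and in PARP3-/- cells EXOSC6 rose while NCL, NOLC1, POLR1E and EXOSC8 fell. Of 22 alternative settings the PARP3-/- call was kept in 21 for EXOSC6, 15 for NCL, 16 for NOLC1 and 10 for EXOSC8. The shares over all genes were 2.79% rises and 1.38% falls in wild type, and 3.05% and 2.52% in PARP3-/- cells.

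The small RNA genes carried the largest and least certain differences. Among 128 small nucleolar RNA genes, SNORA8 fell in wild type (96.8, 110.4 and 130.4 to 72.3, 76.8 and 68.2 FPKM), responding by −0.62 and −0.17. SNORA51, which guides pseudouridylation, stood at 24.7, 23.4 and 26.2 and then 15.3, 6.52 and 15.8 FPKM in wild type, and at 14.1, 8.42 and 9.41 in PARP3-/- vehicle libraries, and was listed at 0 in all 3 PARP3-/- pyridostatin libraries. Its interaction had the smallest p of all genes (limma adjusted p = 0.587), and no fold is given against a group listed at 0. SNORA16A, by contrast, was listed at 0 in the 3 PARP3-/- vehicle libraries and at 7.28, 22.8 and 7.59 FPKM with drug, and at 0 in 5 of 6 wild-type libraries. Of 106 microRNA genes, MIR663A and MIR3648 were called in PARP3-/- cells. MIR663A stood at 371, 469.6 and 197 and then 519, 441 and 237 FPKM in wild type, where the groups overlapped, and at 212, 127 and 295 and then 999, 961 and 490.3 in PARP3-/- cells, where they did not. The 95% interval of its difference ran from 0.39 to 3.09. Its mature form is shown because it is the better detected of the 2, with the seed, bases 2 to 8, in capitals, from RefSeq on GRCh38.p14 at chr20:26208243-26208264, minus strand. A library of fragmented mRNA measures reads over the gene and not the mature microRNA.
hsa-miR-663a: aGGCGGGGcgccgcgggaccgc

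Of 24 unfolded protein response genes, against a background of falls of 1.38% and 2.52%, 4 fell in wild type (HSPA5, PDIA4, PDIA6 and MANF) and the same 4 with HSP90B1, CALR, DNAJB11 and CRELD2 in PARP3-/- cells. With 1 library left out the counts ran from 2 (without wild-type pyridostatin replicate 1) to 6 and from 6 to 11, both highest without wild-type vehicle replicate 2. HSPA5, the chief chaperone of the endoplasmic reticulum, stood at 173, 182 and 178 and then 151, 149 and 161 FPKM in wild type, and at 172, 174 and 178 and then 139, 141 and 136 in PARP3-/- cells. HSP90B1, its HSP90 partner, stood at 324, 317 and 329 and then 294, 284 and 308, and at 330.3, 327 and 326 and then 263, 265 and 253. For both, no drug library overlapped a vehicle library, and their differences were −0.12 and −0.20. Of 35 ATF4 and amino acid response genes SESN2 rose in both, ATF3 rose and CEBPG fell in wild type, and CEBPB rose and CBS, MTHFD2 and GARS fell in PARP3-/- cells. CEBPB, a transcription factor, stood at 38.1, 48.3 and 40.3 and then 35.8, 48.5 and 40.5 FPKM in wild type, and at 23.9, 27.9 and 27.9 and then 44.8, 38.1 and 36.1 in PARP3-/- cells, with the lower start in PARP3-/- vehicle libraries. Among 20 heat shock genes HSPA4L rose in wild type and HSPD1 and FKBP4 fell in PARP3-/- cells. None of 38 NRF2 targets was called. Of 29 immediate early genes IER5 rose in both, ATF3 in wild type, and KLF2, KLF4 and CTGF in PARP3-/- cells. KLF2, a zinc-finger transcription factor, stood at 4.998, 5.64 and 5.45 and then 5.04, 6.50 and 5.97 FPKM in wild type, and at 5.36, 5.27 and 5.47 and then 8.32, 8.47 and 7.44 in PARP3-/- cells, a difference of 0.41 (95% interval 0.17 to 0.65; limma adjusted p = 0.999).

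Metabolic groups gave scattered calls. Over all genes 2.79% rose and 1.38% fell in wild type, and 3.05% rose and 2.52% fell in PARP3-/- cells. Of 25 cholesterol synthesis genes 5 fell in wild type (SQLE, IDI1, CYP51A1, MSMO1 and INSIG1) and 3 in PARP3-/- cells, SQLE and LSS among them, with medians of −0.13 and −0.14; the wild-type count was 1 to 3 without any 1 library other than wild-type vehicle replicate 2, wild-type pyridostatin replicate 2 or PARP3-/- pyridostatin replicate 1. PFKFB3 rose in wild type among 21 glycolysis genes, and none of 73 respiratory chain subunits was called. Of 44 proteasome genes PSMD10 fell in wild type and PSMG1 in PARP3-/- cells. The 192 names beginning with SLC are plotted as solute carriers, although SLC25A21-AS1, an antisense RNA, and SLC4A1AP are among them. Of these, 6 rose and 2 fell in wild type and 5 rose and 2 fell in PARP3-/- cells, 4 in both. The shares called, 4.17% and 3.65%, were no higher than the 4.17% and 5.56% over all genes. Among the calls was the mitochondrial carrier SLC25A28 (0.45 and 0.54). After shifting the libraries to one shared median the wild-type split was 3 rises and 7 falls. The 6 rises became 3 without PARP3-/- pyridostatin replicate 3, any PARP3-/- vehicle library or wild-type pyridostatin replicate 2, and the 5 became 3 without PARP3-/- pyridostatin replicate 2 and 11 without wild-type vehicle replicate 2. Of 36 lysosome and autophagy genes NBR1 rose in wild type and CTSL and ATG3 fell in PARP3-/- cells.

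Of 32 TGF-beta genes, against a background of rises of 2.79% and 3.05%, 2 rose in wild type (ID3 and BMP4) and 9 in PARP3-/- cells, among them SMAD3, SMAD6, SKI, LTBP3, ID3, BMP2, PMEPA1 and CTGF, with ID3 the 1 gene in both and with medians of 0.06 and 0.09. LTBP3, which anchors latent TGF-beta in the matrix, stood at 21.3, 22.6 and 20.7 and then 20.1, 21.9 and 21.6 FPKM in wild type, and at 21.2, 22.5 and 21.2 and then 24.9, 26.1 and 26.8 in PARP3-/- cells. SKI, a repressor of SMAD signalling, responded by 0.12 and 0.33, and these were the 2 members with an unadjusted interaction p under 0.05. The 9 became 1 without PARP3-/- pyridostatin replicate 2 or 3 or vehicle replicate 3, 3 without PARP3-/- vehicle replicate 1 or wild-type pyridostatin replicate 1, and 4 without PARP3-/- vehicle replicate 2; without wild-type vehicle replicate 2 the counts were 2 and 11, beside 3.48% and 6.94% of all genes that then rose. ISG20 fell in both among 27 interferon-stimulated genes. Of 27 NF-kB targets TNFAIP3 rose in both, CCL20 fell in wild type, and TNFAIP2 and CSF1 rose in PARP3-/- cells. NOTCH1 rose in PARP3-/- cells among 22 Notch genes, ITGA5 in PARP3-/- cells and ACTA2 in both among 25 epithelial and mesenchymal markers, and KDM3A in wild type among 22 hypoxia targets. Of 294 numbered zinc-finger genes 11 rose in wild type and 19 in PARP3-/- cells, 9 in both, and none fell in the unscaled data, whereas 2 fell in wild type and 1 in PARP3-/- cells with a shared median. ZNF609 responded by 0.62 and 0.49. Without 1 library the 2 counts went down to as few as 2 (wild-type pyridostatin replicate 1 or 3) and 4 (PARP3-/- pyridostatin replicate 2 or 3 or vehicle replicate 2). Of 179 LINC and antisense RNA genes, 3 rose and 2 fell in wild type and 3 rose and 1 fell in PARP3-/- cells, GAS6-AS1 and LINC01021 in both. The shares called were 2.79% and 2.23%, beside 4.17% and 5.56% over all genes. Of 11 nuclear noncoding RNAs H19 fell in both, by 0.40 and 0.38, and DANCR fell in wild type, responding by −0.24 and −0.01.

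Genes at the top of the interaction ranking are given in full because they bound what the comparison found; each had a limma adjusted p of 0.999 except SNORA51, above. LINC00632, a noncoding RNA, stood at 1.57, 1.86 and 1.74 and then 1.099, 1.09 and 1.19 FPKM in wild type, and at 0.729, 0.603 and 0.956 and then 1.31, 1.02 and 1.04 in PARP3-/- cells. It was lower with drug in every wild-type library and higher in every PARP3-/- library, and its 95% interval ran from 0.36 to 0.90. EXOSC6, a subunit of the RNA exosome, stood at 17.6, 18.0 and 17.5 and then 15.6, 17.5 and 16.5, and at 14.9, 15.8 and 16.9 and then 20.1, 19.3 and 18.9. RBPMS, an RNA-binding protein, stood at 28.3, 30.03 and 29.5 and then 25.3, 28.5 and 26.7, and at 24.3, 26.2 and 27.0 and then 30.6, 29.5 and 31.9. In both genes the wild-type groups overlapped, the PARP3-/- groups did not, and the PARP3-/- vehicle libraries lay below the wild-type ones. TEX30 stood at 10.7, 10.4 and 10.3 and then 7.96, 7.41 and 8.04, and at 9.12, 8.95 and 8.97 and then 10.1, 8.27 and 9.04. It fell in wild type by 0.38, and its PARP3-/- groups overlapped. LOC284801 stood at 3.40, 2.53 and 2.92 and then 3.96, 5.77 and 4.53, and at 1.38, 1.68 and 2.22 and then 7.33, 6.89 and 5.15, higher with drug in every library of both genotypes and with a difference of 0.90 (95% interval 0.41 to 1.38).

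On the negative side GINS3, a subunit of the replicative helicase, stood at 13.5, 13.7 and 12.9 and then 12.4, 12 and 12.5 FPKM in wild type, and at 14.5, 14.8 and 14.9 and then 11.5, 11.4 and 11.6 in PARP3-/- cells. Drug libraries were below vehicle libraries in both genotypes, and the responses of −0.11 and −0.34 differed by −0.23 (95% interval −0.33 to −0.12). TANK, an adaptor of innate immune signalling, stood at 15.5, 15.8 and 14.7 and then 16.8, 16.7 and 17.8, and at 16.4, 17.1 and 17.7 and then 15.5, 14.3 and 15.98. Its libraries did not overlap in either genotype and went opposite ways, by 0.15 and −0.15. HNRNPA1P10, a processed copy of HNRNPA1 whose reads may be split with its parent, stood at 209, 169 and 216 and then 250.2, 229.5 and 335, and at 226, 199 and 228 and then 152, 165 and 173. The remaining gene was NDC80, described with the mitotic genes.

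**Figure D4:**
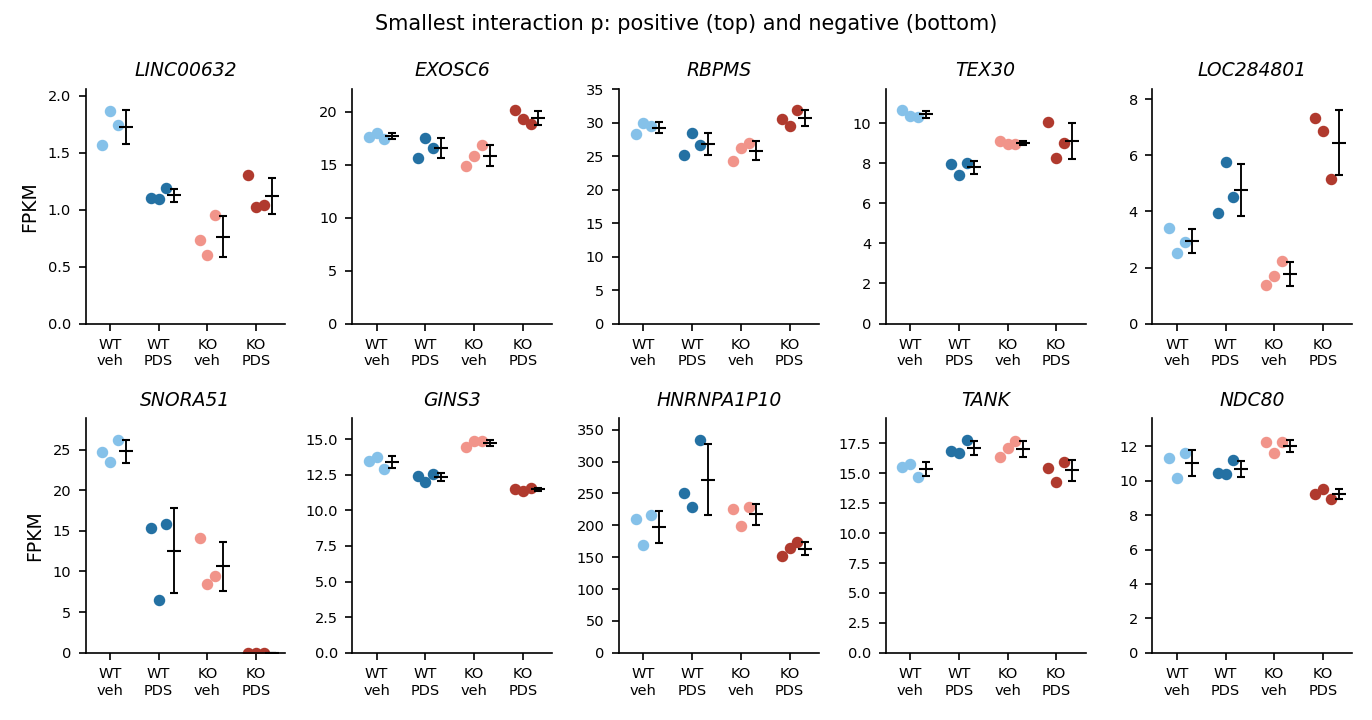
FPKM in each of the 12 libraries of the genes ranked first by unadjusted interaction p, 5 with a positive and 5 with a negative difference; WT is wild type, KO is PARP3-/-, veh is vehicle and PDS is pyridostatin, points are libraries and black bars the mean ± SD of 3. LINC00632 goes down in wild type and up in PARP3-/- cells, TANK goes the opposite way, and SNORA51 is listed at 0 in all PARP3-/- pyridostatin libraries.

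Some genes were called in one genotype with an unadjusted p of at least 0.05 in the other. In wild type these were led by TEX30, TTC32, PBX3, SRGAP2B and FAM72D. TTC32 stood at 13.1, 13.1 and 12.01 and then 10.7, 10.6 and 8.82 FPKM in wild type, and at 10.5, 10.3 and 10.9 and then 10.6, 10.97 and 10.7 in PARP3-/- cells, so that the wild-type drug libraries lay near both PARP3-/- groups. PBX3, a homeobox factor, fell by 0.32 in wild type and responded by −0.06 in PARP3-/- cells. SRGAP2B and FAM72D have near-identical copies among which reads can be split: SRGAP2B stood at 1.78, 0.0243 and 1.75 and then 6.17, 3.18 and 5.09 FPKM in wild type and at 3.30, 3.06 and 3.71 and then 2.26, 2.10 and 2.49 in PARP3-/- cells, and its low value of 0.0243 is from wild-type vehicle replicate 2. FAM72D stood at 6.98, 6.17 and 5.09 and then 2.15, 4.27 and 1.37, and at 3.42, 4.53 and 3.28 and then 6.65, 4.21 and 4.56. In PARP3-/- cells the genes were EXOSC6, NDC80, PRC1 and LTBP3, above, and C4BPB, a complement regulator, at 0.644, 0.703 and 0.527 and then 0.786, 0.705 and 0.856 in wild type, and at 1.49, 1.84 and 1.95 and then 0.942, 1.31 and 0.983 in PARP3-/- cells.

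Few genes passed an adjusted p of 0.05 and an absolute log2 response above 1 together: 6 in wild type (0.0505%), which were BTG2, CDKN1A, DDX42, GAS6-AS1, SRGAP2B and FAM72D, and 8 in PARP3-/- cells (0.0673%), which were BTG2, CDKN1A, LOC284801, MIR663A, MIR3648, SLX1B, SNORA16A and SNORA51. DDX42 and GAS6-AS1 missed the second list by their size, with 0.92 and 0.94. SLX1B, which has a near-identical copy, stood at 4.57, 0.0106 and 3.69 and then 5.93, 1.23 and 7.64 FPKM in wild type, and at 14.3, 8.20 and 11.97 and then 0.514, 2.15 and 0.00109 in PARP3-/- cells. MIR3648 was listed at 0 in 2 libraries of each vehicle group and between 3.41 and 10.7 FPKM in all 6 drug libraries.

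The sign of small differences went with transcript GC content and length, and that relation turned with 1 library. Transcript GC content was known for 11593 genes (97.6%). Genes with a positive interaction at an unadjusted p under 0.05 had a median of 54.8% GC and those with a negative one 44.9%, beside 48.2% over all genes. Across genes the difference correlated with GC content at rho 0.16 and with transcript length at −0.14. Without wild-type vehicle replicate 2 these were −0.18 and 0.28, opposite in sign. With genes in 5 equal bins by GC content, the median difference in the highest bin was 0.03 with that library and −0.01 without it, and in the lowest bin −0.01 and 0.06. The same omission raised the number of genes with an unadjusted interaction p under 0.05 from 521 to 1114 (9.38%; 4.26% positive and 5.12% negative), and the part of GC content in the interaction was not tested beyond these values.

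**Figure D5:**
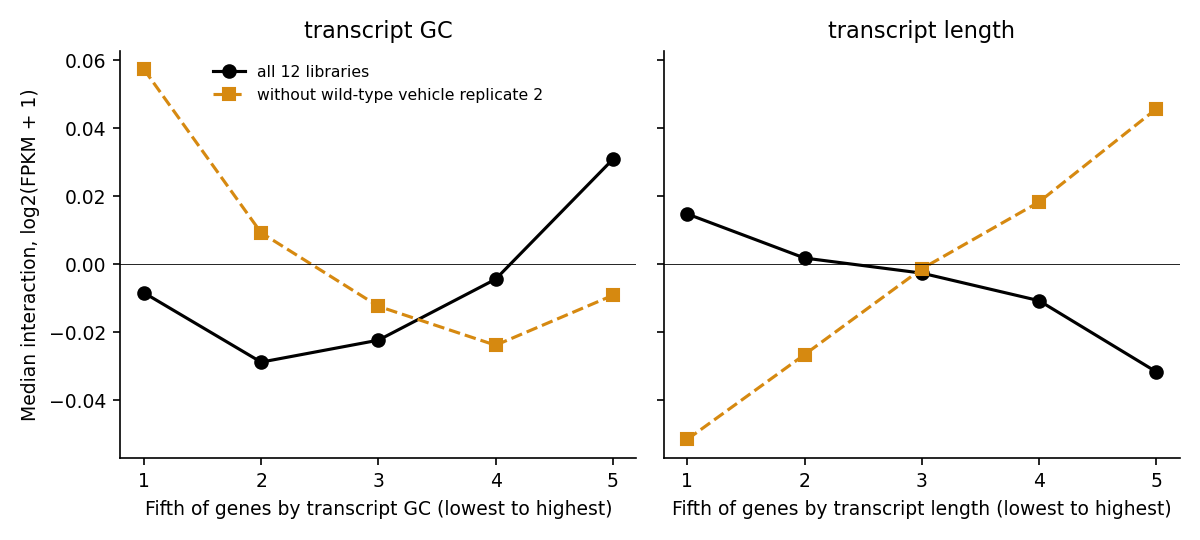
Median difference between the 2 drug responses (y axis, log2) in 5 equal bins of genes by transcript GC content and by transcript length (x axes, lowest bin first), over all 12 libraries and without wild-type vehicle replicate 2; points are medians over about 2319 genes. For GC content the highest bin lies above the lowest over all libraries and below it without that library, and for length the reverse.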

How the data were processed

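RNA of A549 cells was taken from 12 cultures, 3 in each of 4 groups, and sequenced on an Illumina NextSeq instrument as single-end reads of 75 bases from stranded poly(A) libraries. The deposited values used here are FPKM, made by the authors and given as 1 table of 25365 gene names by 12 libraries. The submitters' processing notes name bcl2fastq 2.16, STAR 2.5 and Cufflinks, and the builds hg19 and mm9; the annotation, the strand setting and the Cufflinks version are not given in the sources used here. FPKM carries no read counts, so no count test was used and depth is unknown.

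Values were taken as log2(FPKM + 1) without scaling, genes averaging 1 FPKM or more were kept, and limma 3.58.1 in R 4.3.3 fitted the 4 groups with a trend in the variance. The contrasts were the response in wild type, the response in PARP3-/- cells, and their difference. P-values were two-sided and adjusted by Benjamini-Hochberg over 11881 genes; a gene was called at an adjusted p under 0.05. No list was tested: 55 lists, holding 2201 of the genes tested, are described by counts and medians. The members and lists were chosen with earlier results of these data known. The genes named are the 5 smallest interaction p-values of each sign, the genes past both thresholds, the 5 largest shared rises and falls, the 5 leading calls of one genotype, and within each list the member with the smallest interaction p and up to 3 with the largest response; further called members are named to complete counts, which was decided after their values were seen. Rows whose names had been turned into dates (28) or were present more than once (2) were kept and belong to no list. Fits were tested on simulated data. The replicate numbers are not known to pair the libraries. The 18 correlations of same-numbered deviations ran from −0.12 to 0.22, and 3 exceeded 0.1. Those of different-numbered deviations ran from −0.22 to 0.15, so these values do not settle the pairing. Alternatives were a pseudocount of 0.1, no filter, a filter at 5 FPKM, quantile normalization, a common median, no trend, array weights, a replicate block, each library left out, the libraries of each comparison alone, and no small RNA names. Promoters and microRNAs came from RefSeq tables on GRCh38.p14, and GC content and length from the longest GENCODE release 29 transcript, matched by symbol. Some members of the lists are not reported here by name.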

Additional observations from a re-analysis of the deposited data

Results flagged for a closer look

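In 6 of the genes named by the rule, and 29 of all genes tested, the drug libraries of one genotype all lay above their vehicle libraries and those of the other genotype all lay below, and in each of the 6 the difference between the responses had a limma adjusted p of 0.999. The difference was 0.63 for LINC00632 and 0.21 for SLC19A1, both higher with drug in PARP3-/- cells and lower in wild type. SLC19A1, the reduced folate carrier, stood at 11.5, 11.8 and 11.2 FPKM with vehicle and 9.84, 10.96 and 10.1 with drug in wild type, and at 10.8, 10.99 and 10.7 and then 11.1, 11.2 and 11.7 in PARP3-/- cells. The difference was −0.85 for HNRNPA1P10, −0.30 for TANK, −0.54 for C4BPB and −1.92 for SRGAP2B, all lower with drug in PARP3-/- cells and higher in wild type. HNRNPA1P10 and SRGAP2B share reads with near-identical copies, C4BPB lay below 1 FPKM in every wild-type library, and the share of all genes with such a pattern was 0.244%.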

How the results depend on the processing

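No named gene changed direction in a contrast where it had been called. The relation of the difference to GC content and length did turn, from rho 0.16 and −0.14 to −0.18 and 0.28 without wild-type vehicle replicate 2, and with a common median the share of rises among wild-type calls went from 66.9% to 45.6%. For the interaction, 0 genes had an adjusted limma p under 0.05 with quantile normalization, a common median, no trend, a mean of at least 5 FPKM, without small RNA names and with the replicate block. There were 3 with array weights (GINS3, TM4SF19 and SNORA51), 1 without the filter (PMCH), 1 with a pseudocount of 0.1 (SNORA51), and 0 to 1 with 1 library left out; the 1 appeared without PARP3-/- vehicle replicate 1 or 3 or wild-type pyridostatin replicate 1 or 2. The 521 genes with an unadjusted interaction p under 0.05 were 2126 with array weights, 932 without the filter and 329 to 1114 with 1 library left out: 343, 804 and 329 without wild-type pyridostatin replicate 1, 2 and 3, and 1114 without wild-type vehicle replicate 2.

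Calls in wild type went from 495 to 3028 with array weights, 65 with the 6 libraries of that comparison alone, and 178 to 706 with 1 library left out (178 and 237 without wild-type pyridostatin replicate 1 and 3, 252 without vehicle replicate 3). Calls in PARP3-/- cells went from 661 to 2133 with array weights and 254 to 1559 with 1 left out (285 and 254 without pyridostatin replicate 2 and 3; 346, 300 and 310 without vehicle replicate 1, 2 and 3; 1559 without wild-type vehicle replicate 2). Genes called in both went from 293 to 1192, 62, and 157 to 480, the lowest without wild-type pyridostatin replicate 1 and the highest without wild-type vehicle replicate 2, and 184, 180, 186, 191, 194 and 187 without PARP3-/- pyridostatin replicate 2 or 3, PARP3-/- vehicle replicate 2 or 3, wild-type pyridostatin replicate 3 or wild-type vehicle replicate 3; 12 of the 1192 and 1 of the 480 were called in opposite directions. Genes past both thresholds went from 6 in wild type to 46 with array weights, 3 at a mean of at least 5 FPKM, 11 with a pseudocount of 0.1 and 3 to 8 with 1 left out (3 without wild-type pyridostatin replicate 1), and from 8 in PARP3-/- cells to 16, to 5 at a mean of at least 5 FPKM, to 5 without small RNA names and 5 to 10 with 1 left out (5 without PARP3-/- pyridostatin replicate 2). The cause was not tested. In the fit with the replicate block, 572 genes had an unadjusted interaction p under 0.05, and 411, 589 and 262 were called in wild type, in PARP3-/- cells and in both, 1 of the 262 in opposite directions; the numbers are not known to pair the cultures.

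Over named genes and their alternatives 3991 values kept their direction and side of the threshold, 650 no longer passed, 4 newly passed and 49 moved. Depth is unknown, and 3 libraries a group limit the precision for low genes.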
